A study of Mus musculus with 9 samples.

Results

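Gene expression in clones 10 and 11 of the mouse embryonic stem cell line E14 was set beside that in clones 1, 4, 6 and 13 of the same line. These 6 libraries belong to a series of 9 clones, in which clones 8, 14 and 17 form the remainder. The sets are fixed by clone name and were chosen by measured expression: the similarity of the clones over their genes had been seen, and clones 10 and 11 had the lowest levels of naive pluripotency genes. Every gene of these libraries was therefore in use when the sets were drawn, so all values are descriptions and no difference between the sets was tested.

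E14 is an established male mouse embryonic stem cell line, and all 9 clones were isolated from its bulk culture because their lipid droplets varied in size. Which clone had larger or smaller droplets is not stated in the labels used here, and they name no treatment or change of genotype. All clones were grown on gelatin in medium with foetal bovine serum and leukaemia inhibitory factor (LIF), the cytokine that holds mouse stem cells in self-renewal, and no feeder cells are named. Each clone is 1 library, so the spread within a set is a spread between clones of a line and not between repeat cultures of a clone. In bulk RNA, fewer cells that express a gene and less RNA per cell cannot be told apart.

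Naive stem cells resemble the inner cells of the blastocyst and hold a network of transcription factors that includes Nanog, Esrrb, Tfcp2l1 and Prdm14. On exit from this state these factors decline, and cells pass through a formative state marked by Otx2, Pou3f1 and the DNA methyltransferase Dnmt3b before they enter lineages such as the primitive streak, where T and Wnt3 act. In cells that spread on a substrate, serum response factor (SRF) and the YAP and TEAD regulators drive genes of the actin cytoskeleton and of cell adhesion. SRF binds a short element called the CArG box, which occurs in the promoters of many actin and muscle genes.

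Libraries held 10783718 to 14309662 estimated counts, and 19257 to 20276 genes had a count in each. Levels are CPM, the counts of a gene scaled to a common effective library size, and a count of 0 allows a level of up to 0.207 to 0.287 CPM, from counting error only. Differences are the median of clones 10 and 11 minus the median of clones 1, 4, 6 and 13 in log2 CPM, and folds are ratios of the same medians in CPM. A gene was called separated higher where the lower of clones 10 and 11 lay at least 1 log2 unit above the highest of clones 1, 4, 6 and 13, and separated lower in the mirror case. The 2 sets were said not to overlap where this gap had any size above 0.

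The 7 genes fixed as defining for embryonic stem cells were present in all 9 clones. Their summed level was 3632 and 3297 CPM in clones 10 and 11 and 4083 to 4457 CPM in clones 1, 4, 6 and 13. Of the 9 defining fibroblast genes, 7 were under 1 CPM in every clone, Lum had no count in clones 10 and 11, and the sum was 14.5 and 15.1 CPM against 13.3 to 16.5 CPM. Most of that sum came from Thy1 and Pdgfrb, so it hides the low members. Twist2 had 8 and 12 counts in clones 10 and 11 against 0 to 2 in every other clone. Postn had 1 and 7 counts against 0, while Fap was lower, at 0.289 and 0.207 CPM against 0.383 to 0.636 CPM in clones 1, 4, 6 and 13. The defining streak genes summed to 23.5 and 49.6 CPM against 13.4 to 17.4 CPM, and T made up 27.9 CPM of the sum in clone 11. The defining trophoblast genes summed to 6.57 and 9.19 CPM against 1.63 to 5.78 CPM, with Tpbpa and Prl3d1 at 0 in clones 10 and 11. Clones 10 and 11 thus carried the defining genes of stem cells, and of the other lists the streak and trophoblast sums were the ones in which both lay above clones 1, 4, 6 and 13. Whether a minority of such cells was present was not tested. The primitive endoderm genes summed to 11.4 and 14.3 CPM against 7.14 to 11.9 CPM and the neural genes to 12.1 and 7.81 CPM against 5.75 to 13.5 CPM. The endothelial and blood genes were at 89.6 and 91.3 CPM against 132 to 200 CPM, most of it from Pecam1, which stem cells also express.

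Levels over 3 chromosome regions differed between the clones. The 243 genes from 100 Mb to the end of chromosome 6 had a median deviation of -0.52 and -0.53 log2 units in clones 10 and 11 and of -0.48 in clone 4, against 0.07, -0.02 and 0.08 in clones 1, 6 and 13, and of -0.52, -0.52 and -0.49 in clones 8, 14 and 17. Chromosome 8 stood at 0.435 in clone 10, at -0.07 in clone 11 and at 0.49, 0.53 and 0.51 in clones 8, 14 and 17. Chromosome 11 stood at -0.55, -0.50 and -0.52 in clones 8, 14 and 17 and at -0.07 and -0.06 in clones 10 and 11. The part of the regions in the values of their genes was not tested.

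Among 13373 genes that averaged 1 CPM or more over the 9 clones, 224 were separated higher in clones 10 and 11, which is 1.68% of the genes compared, and 25 were separated lower, which is 0.187%. The looser count was more even: 2376 genes (17.8%) lay higher without overlap and 2776 (20.8%) lower, and the median difference of all genes was -0.02. All 224 genes separated higher were protein-coding, and 39 of them were apart by 2 log2 units or more. The 25 separated lower held 22 protein-coding genes and 3 processed pseudogenes, and 1 was apart by 2 or more. The rule that drew the sets used these values, so nothing is read from the percentages. The genes separated higher had a median difference of 1.94, from 1.11 to 3.83. Of these, 59 had a median under 1 CPM in clones 1, 4, 6 and 13 and 68 a median of 5 CPM or more. The average of the filter includes clones 10 and 11, so genes low in the other clones can pass through them. Counts of separated members among the genes that passed are therefore partly fixed by the filter. Just inside the threshold lay Zswim8, Tmem267 and Trank1 with gaps of 1.002, 1.003 and 1.005, and just outside it Ildr2, Peg10 and Mgat4c with 0.997, 0.993 and 0.993. On the lower side Myh13, Krt42 and Rimbp2 lay inside with -1.007, -1.011 and -1.011, and Matn1, Tfcp2l1 and Gbgt1 outside with -0.987, -0.982 and -0.979.

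**Figure D1:**
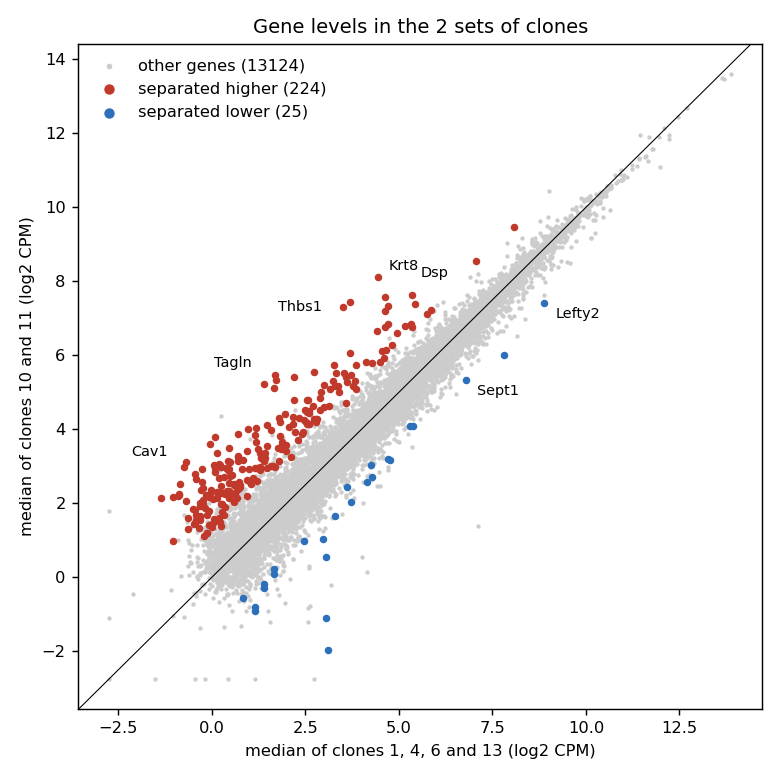
Each point is 1 of 13373 genes, with its median level in clones 1, 4, 6 and 13 on the x axis and in clones 10 and 11 on the y axis, both in log2 CPM. The 224 genes separated higher (red) lie at low, middle and high levels, and the 25 separated lower (blue) lie below the line of equal levels.

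Clones 10 and 11 were slightly further apart over these genes than over all genes. The median absolute difference between them was 0.23 log2 units for the genes separated higher, against 0.17 for all genes, and clone 11 was the higher of the pair in 148 of 224. Clones 1, 4, 6 and 13 spanned a median of 0.65 units for the same genes and 0.39 for all genes. Clone 4 was the nearest of the 4 to clones 10 and 11 in 100 of the 224 genes (44.6%), while it was the highest of the 4 in 31.1% of all genes. Of the 25 genes separated lower, clone 6 was the nearest in 10 and clone 4 in 7, while clone 6 was the lowest of the 4 in 19.7% of all genes and clone 4 in 31.9%. Only genes that had already cleared all 4 clones enter this count, so genes in which clone 4 lay close are left out of it. Without clone 4, 98 genes were separated lower, against 31, 33 and 28 without clones 1, 6 and 13.

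The CArG boxes in the promoters of 3 genes separated higher are shown as examples. They were chosen after the search from the separated genes that had a box, and nothing about other genes is read from them. Promoters from RefSeq (GRCm38.p6), 250 bases before to 50 after the start, matched 10059 of the 13373 genes and 164 of the 224. A CArG box on either strand stood in 6 of the 164 (3.66%) and in 124 of all 10059 (1.23%). The 6 genes are Acta1, Anxa5, Cited1, Dusp5, Fhl2 and Rnf128, which were named after their promoters were searched. Not among them were Tagln, Acta2, Flnc, Cnn1, Zyx and Anxa3, the separated members of the actin and smooth muscle list named below. Tagln had no matched promoter. The 120 bases before the start of Acta1 (skeletal muscle actin, chr8:123894776-123894895, minus strand), Dusp5 (a phosphatase of ERK, chr19:53529025-53529144, plus strand) and Fhl2 (a LIM protein of actin fibres, chr1:43163962-43164081, minus strand) follow, 5′ to 3′ along the gene and with the CArG boxes in capitals.
Acta1: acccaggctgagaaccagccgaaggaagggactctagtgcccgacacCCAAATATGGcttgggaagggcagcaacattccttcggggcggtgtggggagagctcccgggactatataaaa
Dusp5: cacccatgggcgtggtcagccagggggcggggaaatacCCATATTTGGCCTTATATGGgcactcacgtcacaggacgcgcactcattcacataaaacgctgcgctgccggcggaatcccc
Fhl2: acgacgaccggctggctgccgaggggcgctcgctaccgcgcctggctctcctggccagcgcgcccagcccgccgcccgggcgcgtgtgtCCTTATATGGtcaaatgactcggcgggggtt
The first base of the box lay at -73 in Acta1, at -82 and -72 for the adjoining boxes of Dusp5 and at -31 in Fhl2, counted from the RefSeq start. A match is a run of letters and not a measured binding site.

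Other elements were counted in the same windows on both strands. TATAAA, the TATA box, stood in 14% of the promoters of genes separated higher and in 6.89% of all. GGAATG, bound by TEAD factors, stood in 16.5% and 11.6%, and TGANTCA, bound by AP-1 (Fos and Jun), in 6.71% and 4.43%. CAGACA, bound by SMAD proteins, stood in 22% and 15.3%. The GC box GGGCGG stood in 72.6% and 66.7%, and the interferon response element ISRE in 4.27% and 2.78%. Elements less frequent than in all promoters were CTTTGA, bound by TCF and LEF in Wnt signalling, with 4.88% against 11.3%, the E-box CACGTG with 4.88% against 10.4%, and the T-box element TCACACC with 0.610% against 3.25%. The octamer ATGCAAAT stood in 1.22% and 1.39%, the CRE site TGACGTCA in 3.05% and 3.24%, and the Esrrb site TCAAGGTCA in 0% and 0.229%. The median GC content was 63.2% against 61.3%, and the median observed over expected CpG ratio was 0.690 against 0.771. Only 17 of the 25 genes separated lower had a promoter in the table.

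Genes of the actin cytoskeleton and smooth muscle were higher in clones 10 and 11. Of the 34 members compared, 8 were separated higher and none lower, 27 lay higher without overlap and none lower, and the median difference was 0.68 against -0.02 for all genes. Of all genes, 1.68% were separated higher and 0.187% lower, and 17.8% lay higher and 20.8% lower without overlap. These shares belong beside the counts of every list below. Tagln, transgelin, an actin-binding protein of smooth muscle (chr9:45929619-45936058), had 36.7 and 53.8 CPM in clones 10 and 11, whereas clones 1, 4, 6 and 13 had 3.06, 4.79, 2.54 and 3.14 CPM. The ratio of the medians was 14.6, and clone 4 was the highest of the lower set. Acta2, smooth muscle actin, was at 4.33 and 12.9 CPM against 0.479, 1.44, 0.848 and 0.536 CPM, so that clone 11 stood well above clone 10. Flnc, the actin cross-linker filamin C, was at 128 and 168 CPM against 24.5, 43.9, 24.5 and 23.6 CPM (6.05-fold). Cnn1, calponin, was at 5.63 and 9.68 CPM against 0.919 to 2.20 CPM. Zyx, zyxin of focal adhesions, was at 28.7 and 46.0 CPM against 6.13 to 9.50 CPM, and Anxa3, a membrane-binding annexin, at 48.8 and 58.8 CPM against 7.70 to 9.81 CPM. These genes were named because they were separated, so their lack of overlap follows from the call. Tpm4, a tropomyosin on chromosome 8, Anxa1 and Myl9, a myosin light chain, lay higher by 1.28, 1.19 and 1.20 without reaching the threshold. Acta1 was at 4.55 and 6.84 CPM against 0.191, 1.29, 0.212 and 0.689 CPM, and it also lies on chromosome 8. Fhl2 was at 5.34 and 7.81 CPM against 0.843 to 1.67 CPM.

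Tpm1 and Cald1, which encode the actin filament proteins tropomyosin 1 and caldesmon, were apart in the make-up of their transcripts as well as in level. Among 9024 genes with at least 50 counts in each of the 6 clones and 2 or more transcripts, 32 (0.355%) held a transcript whose share was apart by 20 percentage points or more between the sets, and Tpm1 and Cald1 were the 2 of them that were also separated as genes. Tpm1 reached 347 and 398 CPM in clones 10 and 11, beside 142, 138, 129 and 127 CPM in clones 1, 4, 6 and 13. Its transcript Tpm1-213 held 55.9% and 60.4% of the gene's counts against 29.1%, 29.8%, 30.6% and 31.0%. Tpm1-212 held 2.57% and 3.42% against 10.2% to 31.5%, and Tpm1-204 held 3.57% and 1.98% against 7.61% to 14.5%. Cald1 was at 98.7 and 119 CPM against 23.5 to 26.5 CPM. Its transcript Cald1-204 held 42.9% and 41.1% against 0.886% in clone 1, 15.7% in clone 4 and 6.51% in clone 6, with 21.2 percentage points between clone 11 and the nearest of the 4, clone 13, while Cald1-203 held 29.3% and 38.7% against 48.1% to 69.5%. The transcript with the larger share in clones 10 and 11 also had more counts there, with 585 and 710 counts of Cald1-204 against 2, 51, 22 and 69. Clones 8, 14 and 17 had 24.2%, 30.6% and 16.4% for Tpm1-213 and 8.97%, 0% and 0% for Cald1-204. Shares of transcripts that overlap are estimates of the authors' tool, and for genes with few counts they can switch between transcripts.

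**Figure D2:**
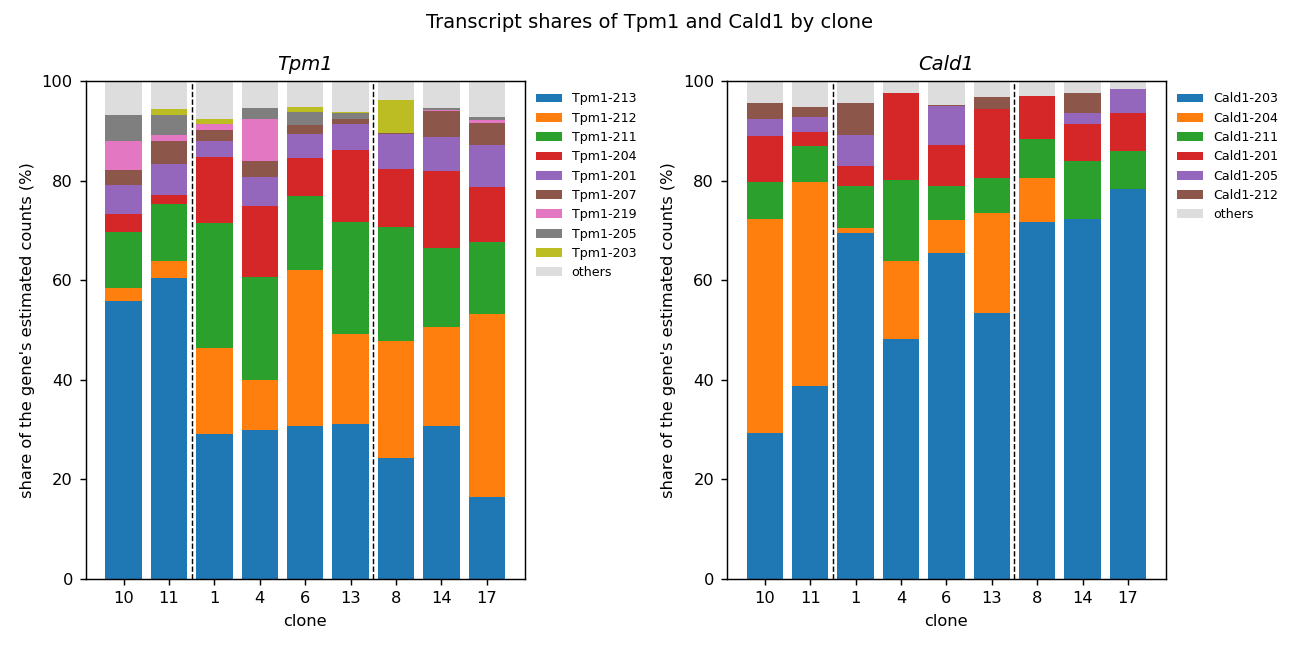
Stacked bars give each transcript's share of its gene's estimated counts (percent, y axis) in each clone (x axis), for Tpm1 on the left and Cald1 on the right, with dashed lines between the sets of clones. Tpm1-213 takes 55.9% and 60.4% in clones 10 and 11 and at most 31.0% in any other clone, and Cald1-204 takes 42.9% and 41.1% with 21.2 percentage points between clone 11 and the nearest of clones 1, 4, 6 and 13.

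Genes that YAP and TEAD are known to drive were also higher. Of 22 compared, 5 were separated higher and none lower, 18 lay higher without overlap, and the median difference was 0.76. The shares of all genes were 1.68% separated higher and 17.8% higher without overlap. Igfbp3, a binding protein of insulin-like growth factors, gave 146 and 177 CPM in clones 10 and 11, compared with 25.8, 38.6, 24.7 and 26.3 CPM. Ccn1, a matrix protein formerly called Cyr61, was at 41.2 and 50.3 CPM against 7.89 to 12.7 CPM. Axl, a receptor kinase, was 4.07-fold higher by the medians, with 19.3 CPM in clone 10 against 4.45 to 9.27 CPM, with clone 4 highest of the lower set. Ptpn14, a phosphatase that restrains YAP, was at 96.3 and 127 CPM against 33.1 to 45.0 CPM, and F3, tissue factor, at 12.8 and 16.5 CPM against 4.10 to 5.59 CPM. The group thus held targets and an inhibitor of the same pathway at higher levels. Amotl2, Crim1 and Tead3 lay higher by 1.26, 1.17 and 1.29. Thbs1, thrombospondin of the matrix (chr2:118111876-118127133), was at 141 and 177 CPM against 9.38, 23.8, 11.1 and 11.4 CPM (14.1-fold).

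Cav1 had the widest gap of the named genes. It encodes caveolin 1, the coat protein of caveolae, small pits of the cell membrane (chr6:17306335-17341452, outside the distal region). Its level was 8.31 and 8.78 CPM in clones 10 and 11 and 0.383, 0.836, 0.565 and 0.306 CPM in clones 1, 4, 6 and 13, an 18.0-fold ratio of medians that rests on 4 to 11 counts per library in the lower set. Of 6 genes of caveolae and membrane traffic compared, 1 was separated and 4 lay higher without overlap. Cavin1, the partner coat protein, was at 77.1 and 86.0 CPM against 30.6 to 63.9 CPM, and Ehd2, which sits at the neck of caveolae, at 4.55 and 6.22 CPM against 1.34 to 3.34 CPM. The caveolar coat genes therefore differed in size of difference, from 0.83 for Cavin1 to 3.82 for Cav1.

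Simple epithelial keratins and junction genes were higher, and keratins 8 and 18 most of all. Of 22 compared, 6 were separated higher and none lower, 16 lay higher and 1 lower without overlap, and the median difference was 0.50. Among all genes 1.68% were separated higher, and 17.8% lay higher and 20.8% lower without overlap. Krt8, the keratin of simple epithelia (chr15:101996698-102004482), had 277 and 275 CPM in clones 10 and 11, whereas clones 1, 4, 6 and 13 had 17.9, 55.9, 22.2 and 20.8 CPM (12.8-fold). Its filament partner Krt18 was at 166 and 180 CPM against 11.6, 38.7, 11.3 and 13.9 CPM (13.6-fold). In both, clone 4 stood between clones 10 and 11 and the other 3. Krt19 was at 119 and 111 CPM against 25.5 to 38.8 CPM. Dsp, desmoplakin of desmosomes, was at 196 and 199 CPM against 29.5, 44.4, 45.4 and 36.5 CPM. The tight junction claudins Cldn7 and Cldn6 were at 21.2 and 21.6 CPM against 5.36 to 7.83 CPM, and at 64.5 and 58.4 CPM against 23.5 to 27.7 CPM. Cdh1, E-cadherin, was at 594 and 462 CPM against 189 to 352 CPM, and it lies on chromosome 8, whose median level was higher in clone 10. Epithelial genes thus lay higher while genes linked to mesenchyme did so too. Of 16 genes of mesenchymal transition, 3 were separated higher and 9 lay higher without overlap, with a median difference of 0.56. Cd44, a hyaluronan receptor, was at 3.90 and 5.46 CPM against 0.0957 to 0.532 CPM, Tnc, tenascin C, at 4.62 and 9.75 CPM against 0.287 to 1.67 CPM, and Zeb2, a repressor of epithelial genes, at 3.61 and 4.01 CPM against 0.918 to 1.29 CPM. Has2, which makes hyaluronan, was at 8.52 and 7.60 CPM against 0.777 to 1.30 CPM.

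**Figure D3:**
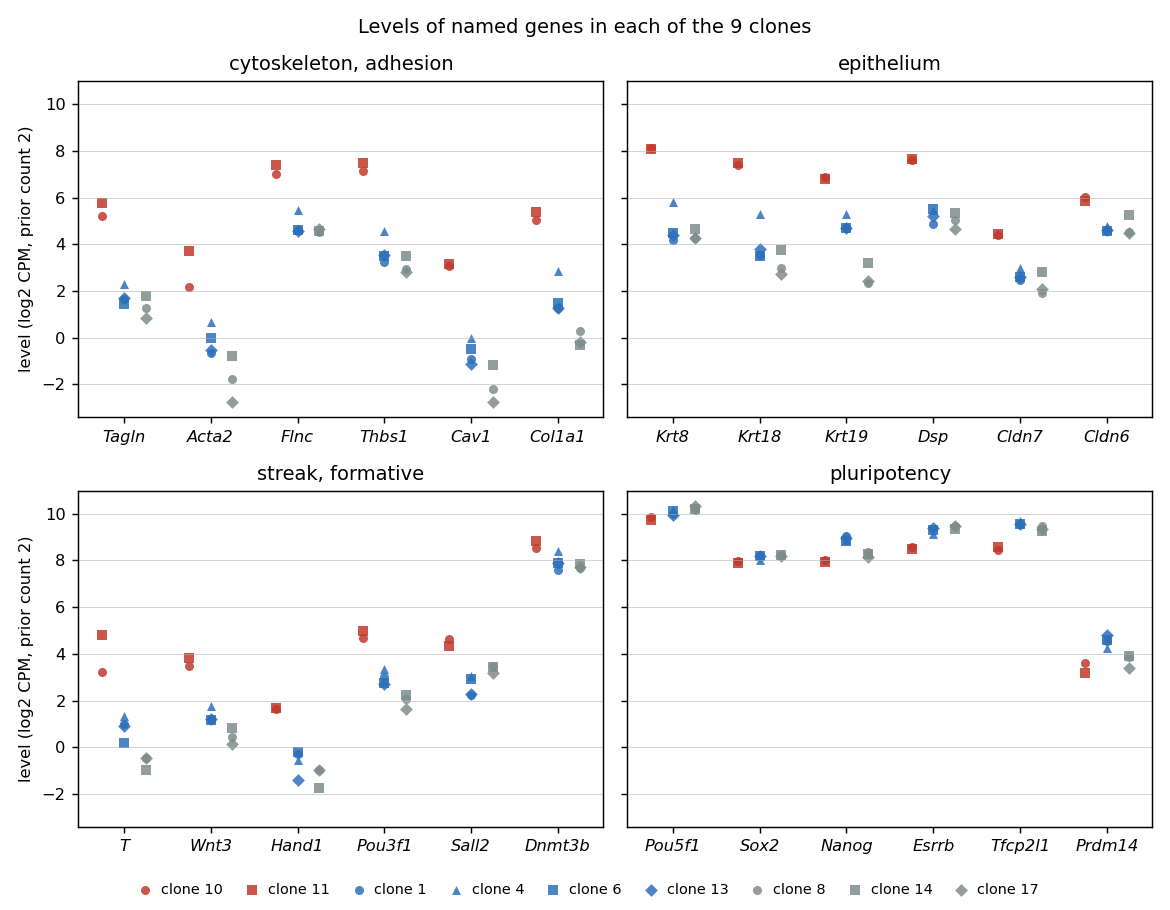
Each point is the level of 1 gene in 1 clone (log2 CPM, y axis), with clones 10 and 11 in red, clones 1, 4, 6 and 13 in blue and clones 8, 14 and 17 in grey. Clones 10 and 11 lie above the blue points for the cytoskeletal, epithelial and streak genes shown, and below them for the pluripotency genes shown, by 0.25 for Pou5f1 and 1.18 for Prdm14 between medians.

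Collagens were higher in single genes. Of 26 collagens, laminins and related genes, 6 were separated higher and none lower, 14 lay higher and 5 lower without overlap, and the median difference was 0.34. As 17.8% of all genes lay higher and 20.8% lower without overlap, nothing is read from the 5 lower ones. Among all genes 1.68% were separated higher. Col1a1, the main chain of type I collagen (chr11:94936224-94953042), was at 33.3 and 42.0 CPM against 2.30, 7.14, 2.68 and 2.30 CPM, and its partner chain Col1a2 at 8.74 and 7.81 CPM against 1.15, 1.44, 0.424 and 0.843 CPM. Col3a1 was at 4.19 and 4.36 CPM against 0.383, 1.06, 0.141 and 0.0766 CPM. Clone 4 was the highest of the lower set for all 3 chains. The basement membrane chains Col4a2, on chromosome 8, and Col4a5 were at 46.2 and 38.4 CPM against 8.89 to 12.3 CPM and at 5.06 and 3.39 CPM against 0.230 to 1.05 CPM. Serpinh1, the collagen chaperone, was at 60.4 and 50.7 CPM against 16.2 to 20.3 CPM. Of the 14 genes listed for fibroblasts, 7 passed the filter, and the 5 of them separated higher, Acta2, Tagln, Col1a1, Col1a2 and Col3a1, are also members of the cytoskeletal and collagen lists. The other 2, Pdgfrb and Thy1, were at 5.78 and 4.56 CPM against 4.14 to 5.46 CPM and at 7.37 and 7.47 CPM against 8.12 to 10.4 CPM, and Dcn and Lum were under 1 CPM in every clone. Acta2, Col1a2 and Col3a1 had medians of 0.692, 0.996 and 0.262 CPM in clones 1, 4, 6 and 13. They passed the filter only through clones 10 and 11, so the count of 5 is partly fixed by the filter.

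Adhesion and growth factor receptors followed. Of 13 integrin genes, Itga3, which pairs with Itgb1 to bind laminin, was at 158 and 179 CPM against 36.8 to 51.1 CPM, and Itga8 at 8.09 and 6.84 CPM against 1.37 to 1.98 CPM; these 2 were separated higher. Itgb1, on chromosome 8, was at 345 and 248 CPM against 125 to 187 CPM, and Itga9 was lower, at 27.0 and 24.2 CPM against 45.4 to 59.3 CPM. Integrin genes were therefore not uniform in direction. Of 31 signalling receptors and Eph genes, 4 were separated higher, beside 1.68% of all genes. Egfr, the epidermal growth factor receptor, was at 24.7 and 31.0 CPM against 3.75 to 5.47 CPM, Flt1, a receptor of vascular growth factors, at 7.58 and 10.1 CPM against 1.23 to 2.43 CPM, and Epha1 at 36.8 and 40.5 CPM against 10.4 to 17.1 CPM. Efnb2, an ephrin on chromosome 8, was at 32.5 and 31.9 CPM against 7.35 to 9.81 CPM. Kit, the stem cell factor receptor, went the other way with 62.6 and 63.3 CPM against 119 to 148 CPM. Sema6a, a guidance molecule, was at 29.5 and 40.2 CPM against 2.30 to 5.02 CPM.

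Genes of the naive network were lower, which is the property that named these clones. Of 16 compared, none was separated, 11 lay lower without overlap and none higher, and the median difference was -0.55, with all members between -1.18 and -0.03. Without overlap, 20.8% of all genes lay lower and 17.8% higher. Prdm14, a repressor of differentiation genes, reached 12.1 and 8.85 CPM in clones 10 and 11, beside 23.3, 18.8, 24 and 27.4 CPM. Tfcp2l1 was at 345 and 381 CPM against 759, 829, 752 and 759 CPM, and Esrrb at 381 and 365 CPM against 656, 561, 641 and 676 CPM. Tcl1, a cofactor of the kinase AKT, was at 48.6 and 37.7 CPM against 63.5 to 92.7 CPM. These genes were near 2-fold lower and remained well above the limit set by a count of 0. Nanog was at 264 and 246 CPM against 527, 472, 460 and 500 CPM. The difference of Nanog was -0.93. It lies in distal chromosome 6 (chr6:122707489-122714633), where the median deviation was -0.52, -0.53 and -0.48 in clones 10, 11 and 4. The part of the region in the level of Nanog was not tested. Without genes of chromosome 8 and distal chromosome 6 the list's median was -0.71. Zfp42, on chromosome 8, was at 708 and 483 CPM against 671 to 870 CPM and overlapped.

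General pluripotency genes differed in both directions, with a small median. Of 14 compared, 1 lay higher and 6 lower without overlap, with a median difference of -0.05. Members ranged from -0.72 to 1.02, and 17.8% of all genes lay higher and 20.8% lower without overlap. Pou5f1 was at 936 and 842 CPM against 1001, 1162, 1122 and 992 CPM, and Sox2 at 249 and 234 CPM against 290, 256, 294 and 292 CPM, differences of -0.25 and -0.27. Sall4 was at 533 and 544 CPM against 452 to 550 CPM. Lin28b, an RNA-binding protein that blocks let-7 microRNAs, was the member that lay higher, at 46.7 and 41.4 CPM against 19 to 22.1 CPM. Dppa5a was lower at 997 and 972 CPM against 1447 to 2058 CPM, and Gdf3, in distal chromosome 6, was at 87.2 and 86.3 CPM against 90.7 CPM in clone 4 and 140 to 165 CPM in clones 1, 6 and 13.

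Formative and primed factors were higher in part. Of 15 compared, 2 were separated higher, 8 lay higher and 1 lower without overlap, and the median difference was 0.45. The shares of all genes without overlap were 17.8% higher and 20.8% lower, and 1.68% were separated higher. Pou3f1, a POU factor of the formative state, was at 25.8 and 31.6 CPM against 8.04, 9.96, 6.64 and 6.36 CPM, and Sall2 at 24.8 and 20.2 CPM against 4.60, 8.06, 7.49 and 4.67 CPM. Dnmt3b was at 372 and 456 CPM against 195, 337, 238 and 236 CPM, and Otx2 at 29.5 and 22.5 CPM against 10.2 to 19.9 CPM. Clone 4 came within 0.14 log2 units of clone 10 for Dnmt3b. Sox11 and Cdh2, which are also neural genes, lay higher by 1.37 and 1.25. Nes, nestin, an intermediate filament of neural progenitors, was at 106 and 97.6 CPM against 14.7 to 28.5 CPM, while the neural factors Pax6 and Sox1 overlapped.

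Primitive streak genes were higher, with a wide difference between clones 10 and 11. Of 20 listed, 13 passed the filter, 3 were separated higher, 5 lay higher and none lower without overlap, and the median difference was 0.59. Hand1 passed the filter only through clones 10 and 11. Among all genes 1.68% were separated higher, and 17.8% lay higher and 20.8% lower without overlap. T, brachyury, reached 9.17 CPM in clone 10 but 27.9 CPM in clone 11, against 1.82, 2.36, 0.989 and 1.76 CPM. Wnt3, the ligand that starts the streak, was at 11.2 and 13.9 CPM against 2.11, 3.27, 2.12 and 2.14 CPM, and Hand1 at 2.96 and 3.11 CPM against 0.230 to 0.707 CPM. Mixl1, which did not pass the filter, had 0.794 CPM in clone 10 but 3.04 CPM in clone 11, against 0.304 to 0.689 CPM. Eomes, at 6.72 and 7.81 CPM against 5.17 to 7.75 CPM, and Kdr overlapped. The members separated higher were thus T, Wnt3 and Hand1, and Cdx2 and Msx1, at 2.09 and 3.39 CPM against 0.460 to 1.44 CPM for Msx1, lay higher by less than the gap asked for. Without clone 10 the list's median was 0.90. Of 14 trophoblast genes, the 3 separated higher, Krt8, Krt18 and Hand1, are shared with the epithelial and streak lists. Cdx2 was at 3.11 and 5.60 CPM against 0.479, 3.04, 1.13 and 0.689 CPM.

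Signalling genes differed in single members. Of 19 Wnt genes, 1 was separated: Wnt4, at 8.45 and 6.98 CPM against 0.862 to 1.60 CPM. Sp5, a direct target of Wnt signalling, was at 8.88 and 15.2 CPM against 4.21, 9.12, 2.90 and 3.60 CPM, and Notum, a secreted Wnt inhibitor, was lower at 29.4 and 29.1 CPM against 57.6 to 82.2 CPM. In the Nodal and TGF-beta list of 20 genes, 1 was separated in each direction. Tgfb2, a ligand, was at 8.16 and 12.8 CPM against 0.574, 1.75, 0.918 and 0.996 CPM (10.9-fold). Lefty2, a secreted Nodal inhibitor (chr1:180893108-180899103), was at 162 and 177 CPM against 506, 426, 484 and 466 CPM, a 2.80-fold lower median. Its neighbour and close copy Lefty1 was at 85.9 and 93.9 CPM against 156 to 173 CPM, and reads of the copies may be divided between them. Of 18 FGF and ERK genes, the ERK phosphatases Dusp4, on chromosome 8, and Dusp5 were separated higher, at 114 and 102 CPM against 33.0 to 43.8 CPM and at 18.6 and 20.2 CPM against 6.29 to 8.74 CPM. Fgfr3 was lower at 2.82 and 2.97 CPM against 3.65 to 7.75 CPM. Of 15 immediate early genes, Atf3, Fosl2 and Klf6, all transcription factors, were separated higher, with 5.20 and 6.50 CPM against 0.380 to 1.07 CPM for Atf3, 18.1 and 21.5 CPM against 2.83 to 4.21 CPM for Fosl2, and 121 and 110 CPM against 34.8 to 43.7 CPM for Klf6. That list's median of 0.60 was 0.21 without clone 10 and 0.25 without clone 11. In the LIF and STAT3 list of 14 genes none was separated, 2 lay higher and 4 lower without overlap. As 17.8% of all genes lay higher and 20.8% lower, nothing is read from these counts.

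Immune and cytokine genes held a few wide gaps. Of 17 cytokine genes, 3 were separated higher, beside 1.68% of all genes. Csf1, the macrophage growth factor, was at 9.75 and 14.7 CPM against 0.574, 1.60, 0.707 and 0.919 CPM (15-fold), Cxcl16, a membrane-bound chemokine, at 17.9 and 17.1 CPM against 3.50 to 6.51 CPM, and Tnfrsf12a, the receptor of TWEAK, at 17.9 and 17 CPM against 4.90 to 7.37 CPM. Of 21 interferon and antigen presentation genes, 4 were separated higher. Gbp2 and Gbp2b, guanylate-binding proteins of the interferon response, were at 34.8 and 50.7 CPM against 3.18 to 8.66 CPM and at 30.5 and 53.2 CPM against 2.05 to 6.84 CPM, and as close copies in 1 cluster on chromosome 3 they may share reads. Gbp7, of the same cluster, and Psmb8, an immunoproteasome subunit, were the others, at 3.39 and 6.15 CPM against 0.988 to 1.53 CPM and at 6.43 and 8.78 CPM against 0.766 to 1.75 CPM. B2m, the light chain of MHC class I, was at 15.2 and 15.1 CPM against 5.02 to 8.81 CPM. Among 28 imprinted genes, Magel2, Gatm and Nnat were separated higher, 14 lay higher and 5 lower without overlap, and Nnat, neuronatin, was at 30.4 and 33.7 CPM against 9.12 to 11 CPM. The shares of all genes without overlap were 17.8% higher and 20.8% lower.

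The other genes with the 15 widest gaps on the higher side were Prss23, Samd4, Car2, Capn2 and Pcdh18. Prss23, a serine protease, was at 15.7 and 12 CPM against 0.707 to 1.52 CPM, and Samd4, an RNA-binding repressor of translation, at 12.3 and 17.1 CPM against 1.15 to 2.28 CPM. Car2, carbonic anhydrase 2, was at 217 and 167 CPM against 22.8, 34.2, 26.2 and 19.8 CPM, and Capn2, a calcium-activated protease, at 67.5 and 64.4 CPM against 10.7 to 13.3 CPM. Pcdh18, a protocadherin, was at 5.56 and 6.71 CPM against 0.141 to 1.06 CPM. These genes were picked by the width of their gap, so their lack of overlap follows from that choice.

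The genes separated lower had a smaller median difference, -1.57 against 1.94 for those separated higher, and no shared list. Their largest absolute difference was 5.07, against 3.83 for those separated higher. Since 0.187% of all genes were separated lower, little is read from the lack of a shared list. Dnaic2, a dynein chain of cilia, was at 0.722 and 0.622 CPM against 2.26 to 2.68 CPM, and Sohlh2, a germ cell transcription factor, at 6.14 and 5.46 CPM against 16.7 to 20.2 CPM. Calb2, the calcium buffer calretinin, was at 3.03 and 2.97 CPM against 8.35 to 13.1 CPM although it lies on chromosome 8, and Casq2, calsequestrin of muscle calcium stores, at 1.01 and 1.73 CPM against 4.79 to 11 CPM. Sept1, a septin, was at 41.0 and 39.3 CPM against 103 to 118 CPM, and Aire, best known from tolerance in the thymus, at 8.45 and 9.54 CPM against 24 to 34.9 CPM. The lipid enzymes Naaa, which cleaves N-acylethanolamines, and Pla2g4e, a phospholipase, were at 7.66 and 10.3 CPM against 25.5 to 32.5 CPM and at 4.26 and 3.66 CPM against 10.5 to 14.9 CPM. Notch4, a Notch receptor, was at 17.1 and 16.7 CPM against 36.5 to 46.3 CPM, and Apod, a lipid-binding apolipoprotein, at 2.09 and 1.59 CPM against 4.67 to 6.22 CPM. Gpr83, Trpm1, Acsm4 and C1rl, the last in distal chromosome 6, were lower by 1.56, 1.94, 1.57 and 1.43 log2 units and each was at 2.38 CPM or less in clones 10 and 11. Only Lefty2 of the 25 is a member of any of the 42 gene lists.

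The metabolic gene lists held no separated member, in a series whose clones were picked for lipid droplets. Over all genes 1.68% were separated higher and 0.187% lower, so a lack of separated members says little. Over all genes 17.8% lay higher and 20.8% lower without overlap. Of 29 lipid droplet and triglyceride genes, 5 lay higher and 1 lower without overlap, with a median difference of -0.04. Plin2, the coat protein of lipid droplets, gave 42.1 and 44.2 CPM in clones 10 and 11, compared with 24.8, 20.6, 18.9 and 19.9 CPM, 2.13-fold higher by the medians. Fabp5, a fatty acid carrier, was at 35.0 and 30.3 CPM against 13.8 to 22.8 CPM, and Dgat2, which makes triglyceride, at 6.64 and 9.68 CPM against 8.51 to 13.3 CPM. The droplet coat gene was thus higher without a shift of the list. Of 28 cholesterol genes, 3 lay higher and 11 lower without overlap (median -0.19), with Abcg1, a sterol exporter, at 20.5 and 18.7 CPM against 29.3 to 42.9 CPM and Ebp, a late synthesis enzyme, at 21 and 16.7 CPM against 30.0 to 36.6 CPM. Of 17 fatty acid synthesis genes 2 lay higher and 4 lower, and Acss2, which makes acetyl-CoA from acetate, was at 6.93 and 8.99 CPM against 13 to 17 CPM. Of 20 fatty acid oxidation genes 1 lay higher and 10 lower (median -0.11), with Cpt1a, the carnitine transferase of the mitochondrial membrane, at 30.8 and 28.9 CPM against 39.7 to 50.9 CPM.

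Glycolysis and respiration genes were slightly lower. Of 24 glycolysis genes 1 lay higher and 13 lower without overlap, with a median of -0.29, and -0.25 without genes of chromosome 8 and distal chromosome 6. Pfkp, a phosphofructokinase, was at 200 and 169 CPM against 293 to 404 CPM. Tpi1 and Ldhb lie in distal chromosome 6 and were at 359 and 380 CPM against 890, 595, 666 and 787 CPM and at 179 and 221 CPM against 449, 326, 496 and 586 CPM, with clone 4 the lowest of the 4 in both. Of 27 oxidative phosphorylation genes 1 lay higher and 14 lower (median -0.19), with Ndufv1 at 157 and 147 CPM against 200 to 251 CPM and Cox6a1 at 113 and 107 CPM against 148 to 179 CPM. Ndufa9, in distal chromosome 6, was at 88.3 and 79.2 CPM against 106 CPM in clone 4 and 135 to 156 CPM in clones 1, 6 and 13. Telomere maintenance, named in the series title, had a median difference of 0.00 over 27 genes, with 2 higher and 4 lower without overlap. Tert, the catalytic subunit of telomerase, was at 18.3 and 16.0 CPM against 17.9 to 19.6 CPM, and Terf1, which binds telomeric DNA, at 94.0 and 112 CPM against 54.7 to 116 CPM, and both overlapped.

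**Figure D4:**
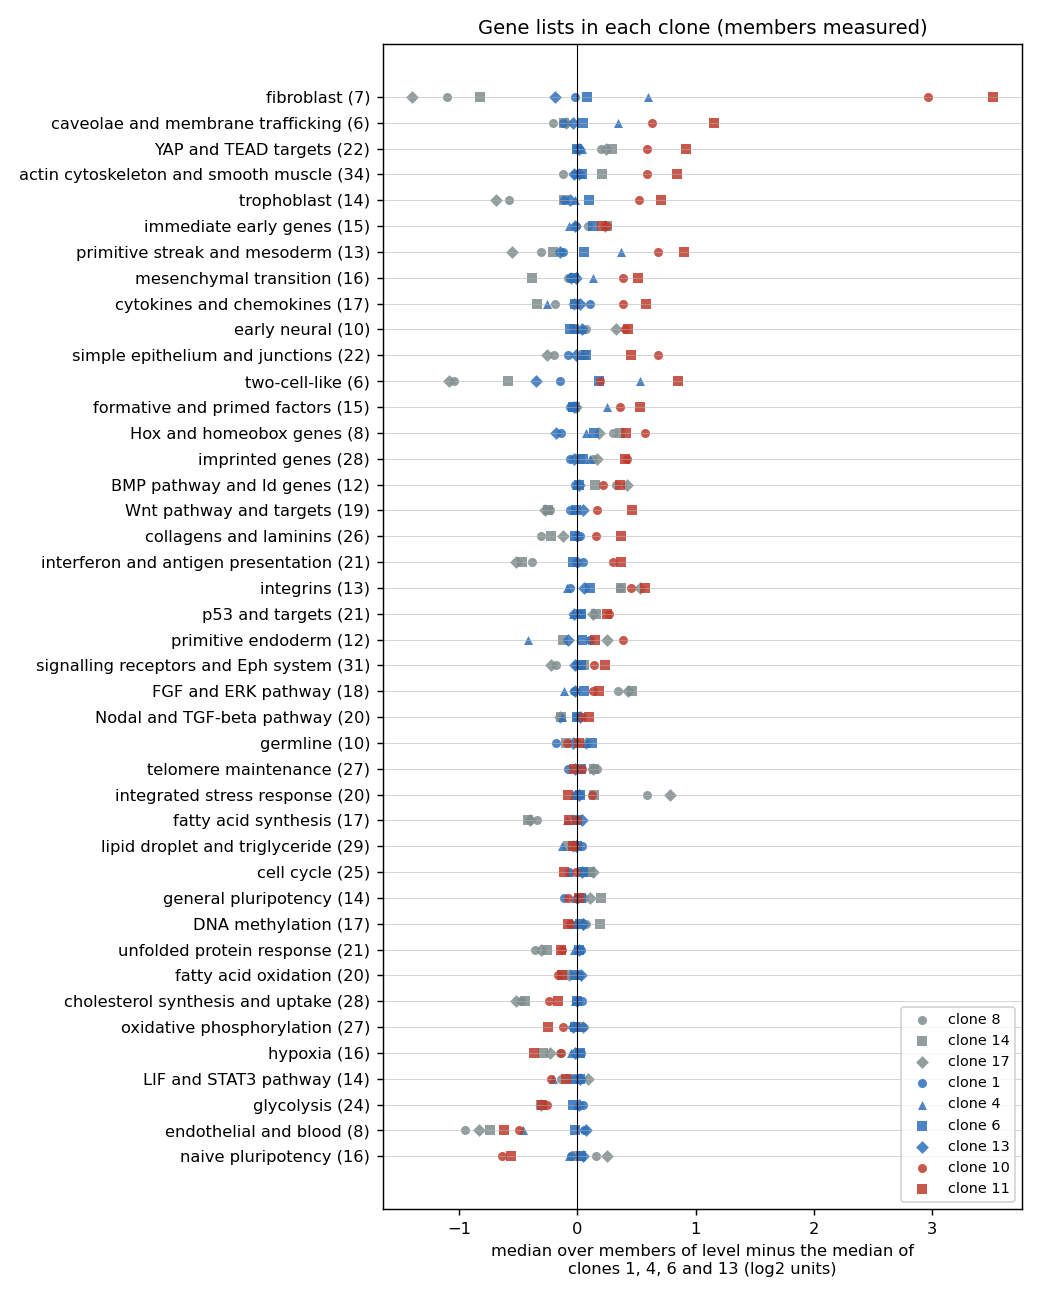
Each row is a gene list (members compared in brackets), and each point the median over its members of the level in 1 clone minus the median of clones 1, 4, 6 and 13 (log2 units, x axis). Clones 10 and 11 (red) stand at 0.59 and 0.84 for the actin list and at -0.64 and -0.56 for the naive list, where clones 8, 14 and 17 (grey) lie between -0.12 and 0.21 and between -0.01 and 0.25.

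Clones 8, 14 and 17 show how far these differences were shared by the other clones. Of the 224 genes separated higher, 155 (69.2%) were still separated by 1 log2 unit or more when clones 8, 14 and 17 joined the lower set. Relative to clones 1, 4, 6 and 13, the median of clones 8, 14 and 17 was within 1 log2 unit in 177 of the 224, at least 1 higher in 22 and at least 1 lower in 25, and 92.2% of all genes lay within 1. Most genes high in clones 10 and 11 thus lay within 1 log2 unit in clones 8, 14 and 17, but a smaller share than of all genes. Capn2, at 44.1, 32.2 and 64.5 CPM, and Car2, at 60.4, 63.2 and 61.2 CPM, were among those also higher in clones 8, 14 and 17. In the other direction, Gbp2 was at 0.501, 0.365 and 0 CPM and Krt19 at 4.87, 9.04 and 5.20 CPM in clones 8, 14 and 17, below both sets. Col1a1 was at 1.07, 0.656 and 0.722 CPM there. Krt19 and Col1a1 lie on chromosome 11, whose median deviation was -0.55, -0.50 and -0.52 in clones 8, 14 and 17, and its part in these values was not tested. Krt8, at 19.2, 25.4 and 19.3 CPM, was near clones 1, 4, 6 and 13, as was Tagln with 2.29, 3.28 and 1.66 CPM.

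Of the 25 genes separated lower, 5 stayed separated from all 7 other clones, and in 16 the median of clones 8, 14 and 17 was also at least 1 log2 unit below that of clones 1, 4, 6 and 13. Lefty2 was at 142, 135 and 70.8 CPM in clones 8, 14 and 17, at or below clones 10 and 11, and Calb2 at 1.36, 2.33 and 0.794 CPM. Sept1 was the opposite case, at 210, 146 and 222 CPM, and Gpr83 at 4.30, 3.28 and 5.20 CPM. Clones 10 and 11 and clones 8, 14 and 17 are set against the same clones here, so that any level of those 4 enters both differences.

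**Figure D5:**
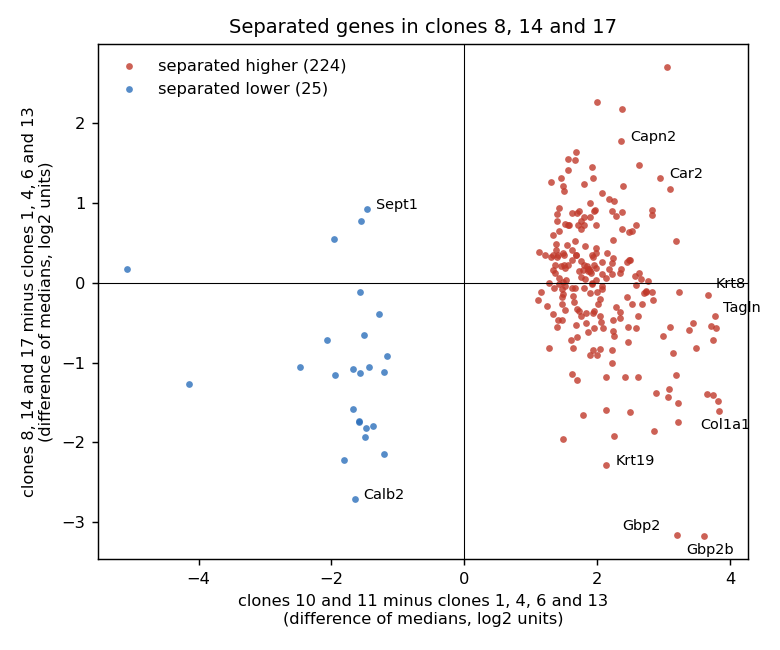
Each point is a separated gene, with its difference between clones 10 and 11 and clones 1, 4, 6 and 13 on the x axis and that between clones 8, 14 and 17 and the same clones on the y axis (log2 units). The 224 genes separated higher (red) spread around 0 on the y axis, with a median of 0.05, and the 25 separated lower (blue) have a median of -1.12.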

How the data were processed

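Each of the 9 E14 clones was treated as 1 sample. The libraries came from a stranded mRNA kit, per the labels' protocols. The submitters' processing notes name CASAVA 1.8, FastQC, Trimmomatic 0.33 and kallisto 0.43.1 as tools and mm10 and GRCm38 as builds. The annotation release was not given in the sources used here. Per the file headers, the deposited tables hold TPM values and estimated counts for 115270 transcripts. The estimated counts are used as the authors deposited them, and the deposited TPM values, scaled by the authors' tool for length and library size, serve an alternative only.

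GENCODE M21 (GRCm38) held 113580 of these transcripts by Ensembl identifier, and their counts were summed to 35580 genes and rounded. The others, with 0.641 to 0.773% of the counts, were left out. Levels are CPM with TMM factors over all genes (edgeR 4.0.16, R 4.3.3), on the log2 scale with a prior count of 2, and genes that averaged 1 CPM or more were compared. Low levels are drawn together by the prior count, so log2 differences of low genes are smaller than their folds. Reads of near-identical transcripts are divided by estimation, so levels of close copies are uncertain. Coordinates are GENCODE's, and promoters are RefSeq's at the start nearest the 5′ end of a gene's most abundant transcript.

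No test was made: the sets were drawn on these libraries, and 2 against 4 libraries do not allow an exact p under 0.05. The members, the 42 gene lists, the markers and the rules were chosen with earlier results of these data known. The genes named are the 15 protein-coding genes per direction with the widest gap between the sets, without provisional symbols; up to 6 separated and 3 other members per list by size of difference; the markers; and Pou5f1, Sox2, Nanog, Esrrb, Dnmt3b, T, Krt8, Krt18, Acta2, Tagln, Col1a1, Csf1, Plin2, Tert and Terf1. Tpm1 and Cald1 come from the rule on transcript shares, and the genes at the threshold are named for their place there. Acta1 and Fhl2, and in the closing section Fndc3b and Rasal1, were chosen after their values were seen. The call was run on simulated counts in which only seeded genes differed between clones. This checks the code and does not show how the call behaves between real clones or in sets chosen on the same data. Alternatives were median-ratio size factors (DESeq2 1.42.0), a prior count of 0.5, no filter or 5 CPM, log2(TPM + 1), other gaps, protein-coding genes only and each clone left out. TMM over filtered genes, leaving out chromosome 8 and distal chromosome 6, and clones 8, 14 and 17 as the lower set were added after seeing the data.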

Additional observations from a re-analysis of the deposited data

How the results depend on the processing

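The count of 224 genes separated higher became 95 with a minimum of 5 CPM, 128 with log2(TPM + 1), 538 with a gap of 0.5, 39 with a gap of 2 and 375 with clones 8, 14 and 17 in place of clones 1, 4, 6 and 13, and leaving out 1 clone gave 245 to 328. The count of 25 genes separated lower became 41 when no filter was set, 16 at 5 CPM, 8 with log2(TPM + 1), 244 with a gap of 0.5, 1 with a gap of 2 and 122 with clones 8, 14 and 17 in place. Leaving out 1 clone gave 28 to 107 lower genes, with 87 without clone 10, 107 without clone 11 and 98 without clone 4. Without clones 1, 6 and 13 the count was 31, 33 and 28. Leaving out a clone cannot lower the count, since fewer clones have to be cleared. The 155 and 5 genes separated from all 7 other clones became 88 and 2 with log2(TPM + 1) and 359 and 59 with a gap of 0.5. The 32 genes apart in transcript shares became 59 with a minimum of 20 counts, 14 with 100 counts and 155 with 10 percentage points. With median-ratio size factors 223 of the 224 higher and 23 of the 25 lower genes were shared with the main calls, with TMM over filtered genes 221 and 21, and without chromosome 8 and distal chromosome 6 the counts were 208 and 21. The median of the two-cell-like list went from 0.50 to -0.73 and that of the cytokine list from 0.51 to -0.19 with a minimum of 5 CPM, which leaves fewer members. No paired analysis was possible because the clones carry no shared replicate number. Each clone is 1 library, so a difference between clones and one between cultures cannot be told apart, and levels under about 1 CPM rest on few counts.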

Other observations

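Genes of p53 and its targets lay higher as a small shift. Of 21 compared, none was separated, 11 lay higher and 1 lower without overlap, and the median difference was 0.23 against -0.02 for all genes. Without overlap, 17.8% of all genes lay higher and 20.8% lower. Perp, a junction protein induced by p53, had 66.8 and 69.9 CPM in clones 10 and 11, whereas clones 1, 4, 6 and 13 had 18.0 to 36.5 CPM, Plk2, a kinase, at 109 and 98.2 CPM against 51.2 to 56.2 CPM, and Ccng1, cyclin G1, at 415 and 420 CPM against 244 to 311 CPM. Of 25 cell cycle genes, Cdkn2b, an inhibitor of cyclin-dependent kinases, was separated higher at 3.47 and 3.73 CPM against 0.957 to 1.30 CPM, and the list's median was -0.05. Of 16 hypoxia genes none was separated and 7 lay lower without overlap, with Egln3, a prolyl hydroxylase, at 9.10 and 9.06 CPM against 14.1 to 19.1 CPM and Bnip3, a mitophagy receptor, at 43.6 and 46.1 CPM against 76.2 to 104 CPM. Of 12 genes of the BMP pathway none was separated, 5 lay higher and 1 lower without overlap, with Id1 at 93.8 and 55.9 CPM against 25.1 to 44.6 CPM and Id2 at 39.4 and 35.9 CPM against 16.0 to 18.5 CPM. The lower one was the ligand Bmp4, at 30.1 and 31.6 CPM against 36.6 to 74.9 CPM.

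In some genes the estimated share of a transcript was apart between the sets with little difference in level. Fndc3b was at 28.9 and 33.0 CPM against 21.5 to 24.1 CPM, and its transcript Fndc3b-201 held 80.1% and 82.9% of the counts in clones 10 and 11 against 25.4% in clone 1 and under 1% in clones 4, 6 and 13. Clone 8 had 66.2% of it and clones 14 and 17 had under 2%. Rasal1 was at 7.22 and 6.15 CPM against 8.20 to 9.42 CPM, and Rasal1-201 held 92.5% and 92.3% against at most 23.2%. Clones 8, 14 and 17 had 0.288%, 92.9% and 94.2% of it. Within clones 8, 14 and 17 the shares of both transcripts thus lay far apart. The lowest gene count among the 6 clones was 249 for Fndc3b and 89 for Rasal1, and whether the estimate or the RNA switched was not tested.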
